A study of Mus musculus with 6 samples.

Results

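Solute carriers are membrane proteins that move sugars, amino acids, ions, metals, vitamins and other small molecules across the plasma membrane or the membranes of organelles, and their gene symbols give the family number after the letters Slc. The genes described here are the 49 whose symbol starts with Slc and a digit in a table of 2065 genes. The table comes from a mouse cell line, MLO-Y4, that resembles osteocytes, which sit within the mineral of bone. The table lists 56 such symbols, and 7 of them (Slc2a1, Slc7a5, Slc7a11, Slc7a2, Slc1a5, Slc39a14 and Slc11a2) were left out of the set. The 49 genes belong to 26 families and were put into 14 substrate classes by family number. Of them, 48 are protein-coding and 1, Slc39a1-ps, is a pseudogene. Slc9a3r1 carries a carrier's symbol but encodes NHERF1, a scaffold protein that binds carriers.

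Messenger RNA was sequenced from wild-type cells of this line in 3 libraries labelled hypoxia (2% O2 in a hypoxic chamber, replicates 1, 2 and 4) and 3 labelled normoxia (20% O2, replicates 2, 3 and 4), all for 24 h by their titles. Some descriptions give 25 or 26 h. Whether the replicates are separate cultures is not stated by the labels. The p-values therefore cover the spread between the 6 libraries and nothing more, and that spread may be technical. The entries were read as log2(value + 1), where the linear value has no named unit, so sequencing depth is unknown and levels are not compared between genes. All levels and differences below are on this log2 scale, and a difference is the mean under the hypoxia label minus the mean under the normoxia label, with its standard error.

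Every listed gene has a log2 fold change of 1.00 or more in size in the authors' deposited table, which compares these same 6 libraries, so that a call for a listed gene is not independent evidence. The glucose carrier Slc2a1, a target of hypoxia-inducible factor and outside the 49 genes, was at 7.86, 7.65 and 7.65 in the libraries labelled hypoxia, against 10.77, 10.81 and 10.96 in those labelled normoxia. Because a gene that low oxygen is known to raise was lower under the hypoxia label, every direction is given by label only. Of 14 osteocyte markers, 4 were listed (Trp53inp2, Pdpn, Fam20c and Ank, all higher under the hypoxia label as deposited, Ank below 0 with the TMM factors described below), with summed linear values of 354.5 to 366.5 in the libraries labelled hypoxia and 105.6 to 121.3 in those labelled normoxia. The osteocyte genes Dmp1, Phex, Sost, Mepe, Fgf23 and Gja1 are outside the table and were not analysed here. Of 15 markers of macrophages and osteoclasts 2 were listed, Mmp9 and Cd68, with summed linear values of 8.34 to 10.65 in the libraries labelled hypoxia and 22.8 to 26.5 in those labelled normoxia. Cd68, which makes up most of that sum, was lower under the hypoxia label (-1.46 ± 0.11), and Mmp9, which passed the filter on low values only through the libraries labelled hypoxia, was higher (1.16 ± 0.15). The single listed adipocyte marker of 7, Cebpa, had linear values of 4.03 to 4.59 under the hypoxia label and 1.18 to 1.47 under the normoxia label, and the single chondrocyte marker of 6, Sox9, had 15.96 to 19.16 under the hypoxia label and 71.9 to 87.6 under the normoxia label. Of 7 endothelial markers 0 were listed. Their part in the results below was not tested. In bulk libraries, fewer cells of a type and less RNA per cell cannot be told apart.

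Carriers work along routes. Zinc enters the cytosol through the Slc39 family and leaves it, outward or into organelles, through the Slc30 family. Nucleotide sugars and the sulfate donor enter the Golgi through the Slc35 family, where they are used to build the sugar chains of matrix proteoglycans. Slc25 carriers connect the cytosol with the mitochondrial matrix, and Slc7, Slc38, Slc36 and Slc66 carriers move amino acids across the plasma membrane and the lysosomal membrane.

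Promoters are shown for 4 genes: Slc30a7, Slc30a5 and Slc30a6, which load zinc into the secretory pathway, and Slc33a1, the gene with the widest gap between the groups of libraries. The sequences run from 250 bases before to 50 after the gene's start (RefSeq, GRCm38.p6), and capitals mark the core letters bound by hypoxia-inducible factor, ACGTG on either strand. The promoter of Slc30a6 holds none of the motifs searched.
Slc30a7 (chr3:116007357-116007656, minus strand): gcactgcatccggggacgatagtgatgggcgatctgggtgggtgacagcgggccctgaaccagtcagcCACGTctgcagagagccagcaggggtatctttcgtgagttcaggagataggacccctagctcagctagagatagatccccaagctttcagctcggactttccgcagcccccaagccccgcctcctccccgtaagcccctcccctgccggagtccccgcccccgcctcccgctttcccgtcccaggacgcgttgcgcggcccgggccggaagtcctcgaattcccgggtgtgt
Slc30a5 (chr13:100833378-100833677, minus strand): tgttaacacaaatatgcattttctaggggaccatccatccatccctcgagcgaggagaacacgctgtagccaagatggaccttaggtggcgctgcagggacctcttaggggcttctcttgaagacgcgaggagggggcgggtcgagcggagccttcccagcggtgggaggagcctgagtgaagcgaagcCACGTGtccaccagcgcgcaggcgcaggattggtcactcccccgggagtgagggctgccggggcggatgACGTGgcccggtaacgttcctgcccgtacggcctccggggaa
Slc30a6 (chr17:74395358-74395657, plus strand): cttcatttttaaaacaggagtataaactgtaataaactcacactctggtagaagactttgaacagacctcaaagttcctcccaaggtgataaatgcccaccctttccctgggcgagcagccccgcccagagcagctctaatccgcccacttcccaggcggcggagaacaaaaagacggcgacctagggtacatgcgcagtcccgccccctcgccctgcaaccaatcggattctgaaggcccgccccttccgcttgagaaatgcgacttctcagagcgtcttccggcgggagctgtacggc
Slc33a1 (chr3:63964684-63964983, minus strand): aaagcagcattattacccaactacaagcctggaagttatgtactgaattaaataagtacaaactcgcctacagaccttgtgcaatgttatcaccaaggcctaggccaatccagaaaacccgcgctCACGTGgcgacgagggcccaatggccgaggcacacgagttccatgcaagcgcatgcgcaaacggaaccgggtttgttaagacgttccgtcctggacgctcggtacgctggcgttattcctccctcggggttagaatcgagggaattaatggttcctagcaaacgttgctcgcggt
RefSeq promoters were found for 33 of the 49 genes. ACGTG, searched on both strands, was present in 12 of the 33 (36.4%), beside 30.2% of 1419 listed genes with a promoter and 21.8% of all 27025 genes. The palindrome CACGTG, which contains ACGTG, was present in 18.2%, beside 11.9% of listed and 8.09% of all genes. The metal response core, TGCACNC or TGCGCNC on both strands, was present in 48.5%, beside 38.5% and 28.2%. The core bound by ATF4, TGATGNAA, had 0 matches in the 33 genes, beside 3.31% of listed and 4.51% of all genes, which says only that these letters are not in these windows. The endoplasmic reticulum stress element also had 0 matches, beside 0.705% of listed and 0.137% of all genes. A gene with several start sites was counted where any of its promoters held the letters. A match is a description of the sequence and not a bound site.

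With limma's test all 49 genes were called higher in the libraries labelled hypoxia as deposited, beside 79.4% of all 2056 tested genes called higher and 20.6% called lower; 9 of the 49 fell below 0 with TMM factors (below). The rule for the set left out the only listed Slc gene that was lower, Slc2a1, so that a set without lower genes follows from the choice of members. The differences ran from 1.00 to 2.18 with a median of 1.21, while the median was 1.15 over all tested genes and 1.23 over the 1633 tested genes that were higher. The Benjamini-Hochberg adjusted p from limma ran from 5.29e-08 to 0.000816. The groups of libraries did not overlap in any of the 49 genes, beside 99.9% of all listed genes. A difference of at least 1.5 was found in 6 genes (12.2%), beside 19.2% of all tested genes. The left-out Slc1a5 (2.36), Slc39a14 (1.87) and Slc7a5 (1.82) also exceeded 1.5, so that this share depends on the choice of members.

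**Figure D1:**
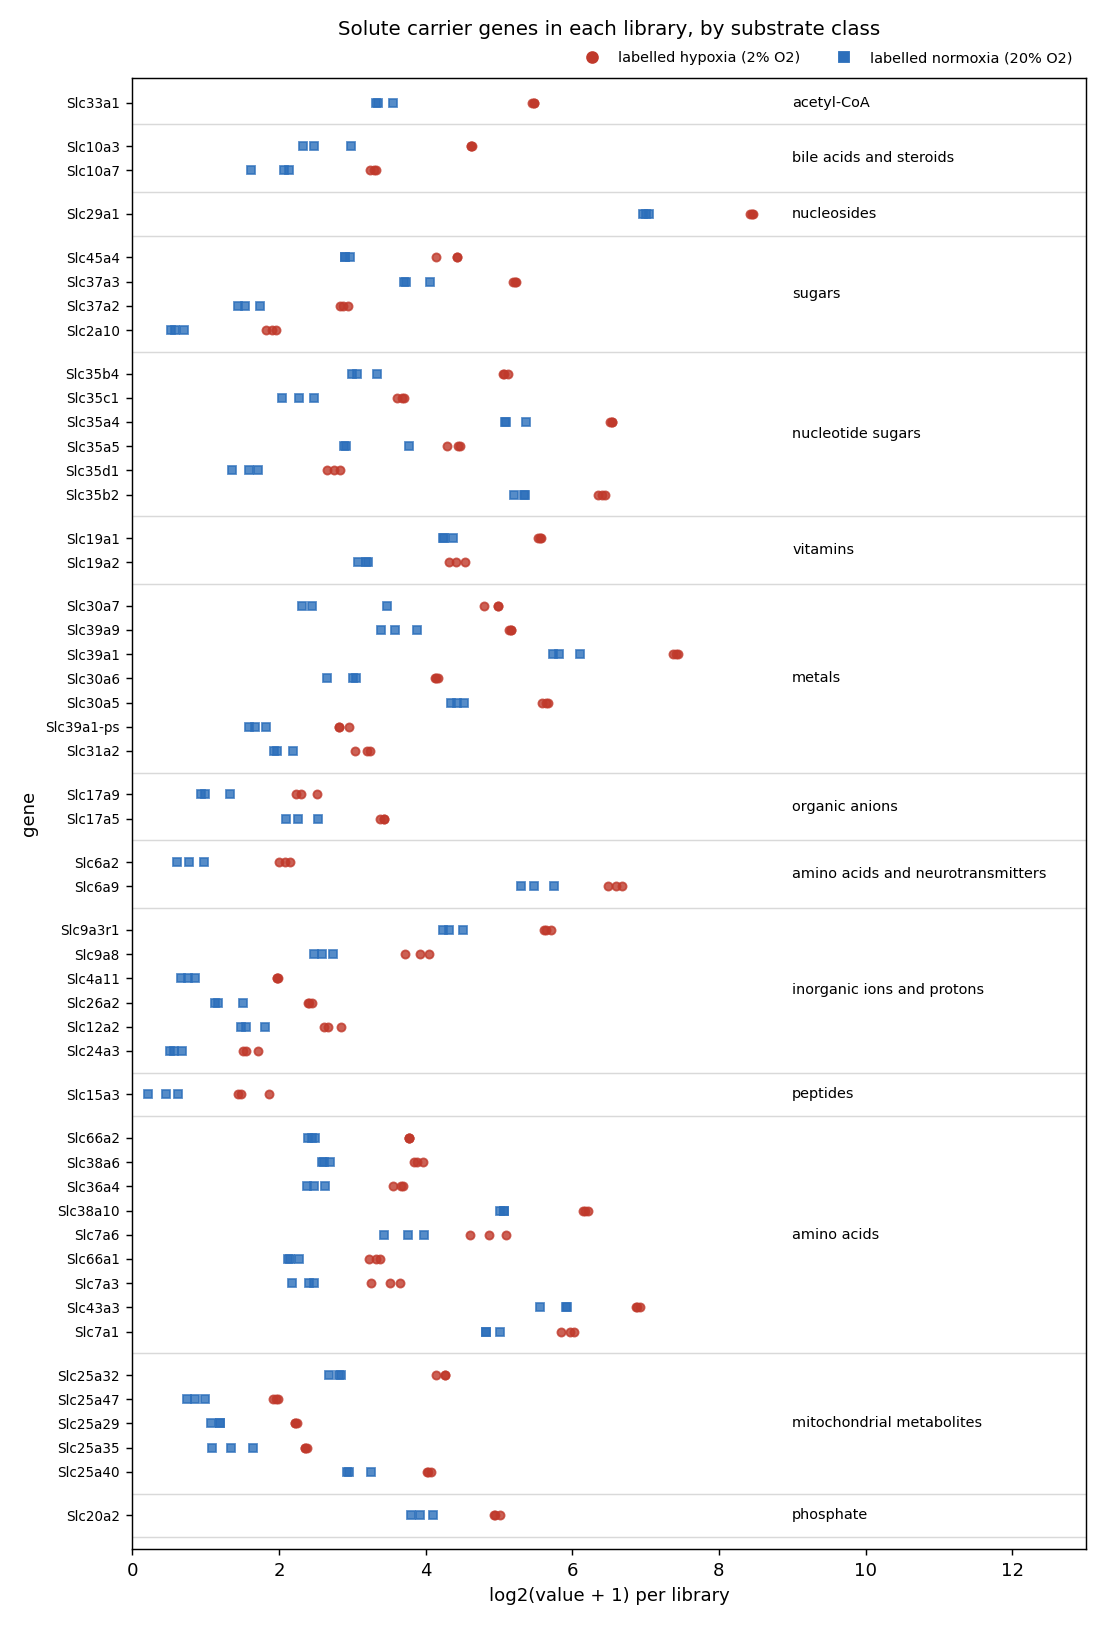
Level of each of the 49 genes in each library, on the log2(value + 1) scale (horizontal), grouped by substrate class. Circles are the 3 libraries labelled hypoxia and squares the 3 labelled normoxia; in each row every circle lies to the right of every square as deposited, and the narrowest gap between them is 0.52. TMM factors, not drawn here, put the difference of 9 of these genes below 0.

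These differences depend on the scaling of the libraries. Quantile normalization moved the median difference of all tested genes from 1.15 to 0.36, a shift of -0.79. Trimmed mean (TMM) factors, which assume that most genes of a table do not change, moved it to 0.028, a shift of -1.12. Both were computed on this table alone, where every gene has a log2 fold change of 1.00 or more in size as deposited. With 79.4% of tested genes called higher, both scalings pull the higher genes down. A lost call or a difference below 0 therefore does not show that a carrier is unchanged or lower. With quantile normalization 43 of the 49 genes were still called higher (87.8%), beside 67.6% of all tested genes called higher and 20.5% called lower, and beside 85.1% of the genes that were higher as deposited. The 6 that lost the call were Slc35a5, Slc7a6, Slc7a3, Slc20a2, Slc25a35 and Slc25a40. With TMM factors 15 were still called higher (30.6%), beside 27.8% of all tested genes called higher and 23.1% called lower, and beside 35% of the genes that were higher as deposited. The difference fell below 0 in 9 (18.4%), beside 47.2% of all tested genes and 33.5% of those that were higher as deposited. Of the 15, 6 were under a linear value of 1 in every library labelled normoxia (Slc2a10, Slc6a2, Slc4a11, Slc15a3, Slc25a47 and Slc24a3). They had passed the filter on low values only through the libraries labelled hypoxia, so that their calls support nothing further. Of the other 43 members 9 were still called. Among these, Slc17a9 was under a linear value of 1 in normoxia replicates 3 and 4. It too passed the filter only with the libraries labelled hypoxia, so that its call adds no support. The 15 were Slc30a7, Slc33a1, Slc10a3, Slc35b4, Slc39a9, Slc39a1, Slc25a32, Slc35c1, Slc2a10, Slc6a2, Slc17a9, Slc4a11, Slc15a3, Slc25a47 and Slc24a3. The 9 below 0 were Slc30a5, Slc38a10, Slc7a6, Slc35b2, Slc43a3, Slc6a9, Slc7a1, Slc20a2 and Slc25a40.

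**Figure D2:**
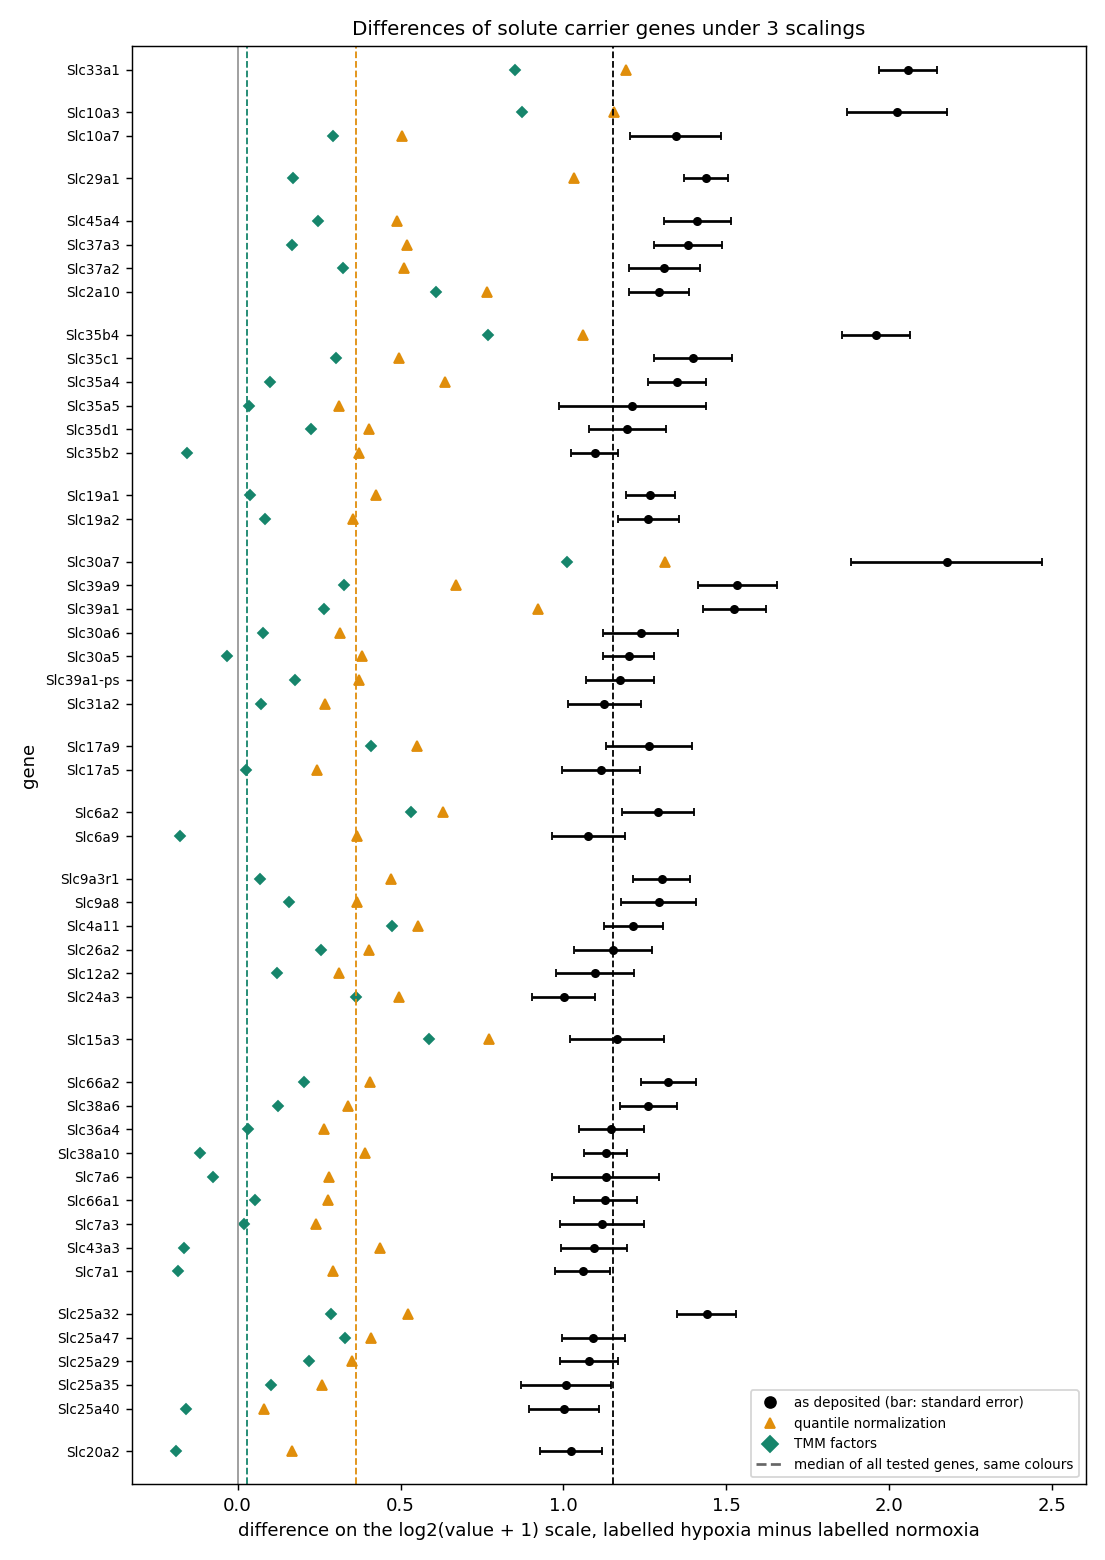
Difference of each gene, libraries labelled hypoxia minus libraries labelled normoxia, on the log2(value + 1) scale, as deposited (circles with standard error), with quantile normalization (triangles) and with TMM factors (diamonds). Dashed lines give the median of all 2056 tested genes under each scaling, 1.15, 0.36 and 0.028; with TMM factors 9 genes lie below 0.

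Metal carriers held the gene with the largest difference of the set. All 7 listed genes of this class, among them the pseudogene Slc39a1-ps, rose as deposited (median 1.24). With TMM factors Slc30a5 was below 0 and 3 were still called higher. Slc30a7 (ENSMUSG00000054414, chromosome 3), which carries zinc from the cytosol into the early secretory pathway, was at 4.79, 4.99 and 4.99 in the libraries labelled hypoxia and at 2.46, 2.31 and 3.48 in those labelled normoxia. The groups lie far apart, but normoxia replicate 4 was more than 1 above the other two libraries of its label, and the difference of 2.18 ± 0.29 has the largest standard error of the 49. Without that library the difference was 2.54. Slc30a5 and Slc30a6 encode carriers that work as a pair in the same compartment. Slc30a5 was at 5.64, 5.59 and 5.66 under the hypoxia label and 4.52, 4.42 and 4.34 under the normoxia label. Slc30a6 was at 4.13, 4.14 and 4.17 under the hypoxia label, against 3.01, 3.05 and 2.66 under the normoxia label. Their differences of 1.20 ± 0.077 and 1.24 ± 0.12 were alike as deposited, and with TMM factors they were -0.033 and 0.079, where that of Slc30a7 was 1.01. The 3 listed Slc30 genes stand among 10 protein-coding genes of the family in RefSeq.

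Zinc importers of the Slc39 family rose too, by label and as deposited, and stayed above 0 with TMM factors. Slc39a9, a carrier of the Golgi and the plasma membrane, was at 5.16, 5.16 and 5.14 in the libraries labelled hypoxia, against 3.89, 3.59 and 3.40 in those labelled normoxia (1.53 ± 0.12). Slc39a1, a zinc importer of the plasma membrane, was at 7.42, 7.44 and 7.38 under the hypoxia label and at 6.10, 5.82 and 5.74 under the normoxia label (1.52 ± 0.097). In both genes the hypoxia-labelled libraries lie within 0.07 of each other and those labelled normoxia spread over more than 0.3. The pseudogene Slc39a1-ps (1.17) may share reads with Slc39a1, so that its value is uncertain. The low-affinity copper carrier Slc31a2 had a difference of 1.13 ± 0.11. The left-out metal carriers Slc39a14 and Slc11a2 had differences of 1.87 and 1.42.

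Of 15 genes that respond to or handle zinc and copper, 4 were listed. Genes of the Steap family, some of whose members reduce iron and copper before uptake, were higher in the libraries labelled hypoxia as deposited. The differences were 2.16 ± 0.087 for Steap4, 1.99 ± 0.067 for Steap1 and 1.58 ± 0.10 for Steap2. With TMM factors these differences were 1.65, 0.75 and 0.36. Steap4 passed the filter on low values only through the libraries labelled hypoxia. Metallothionein 1, Mt1, a zinc-binding protein whose gene responds to zinc, was lower, at 10.59, 10.58 and 10.52 in the libraries labelled hypoxia and at 12.32, 12.25 and 12.42 in those labelled normoxia (-1.77 ± 0.076). The difference of Mt1 was -0.42 with quantile normalization and -3.04 with TMM factors, so that its size depends on the scaling.

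**Figure D3:**
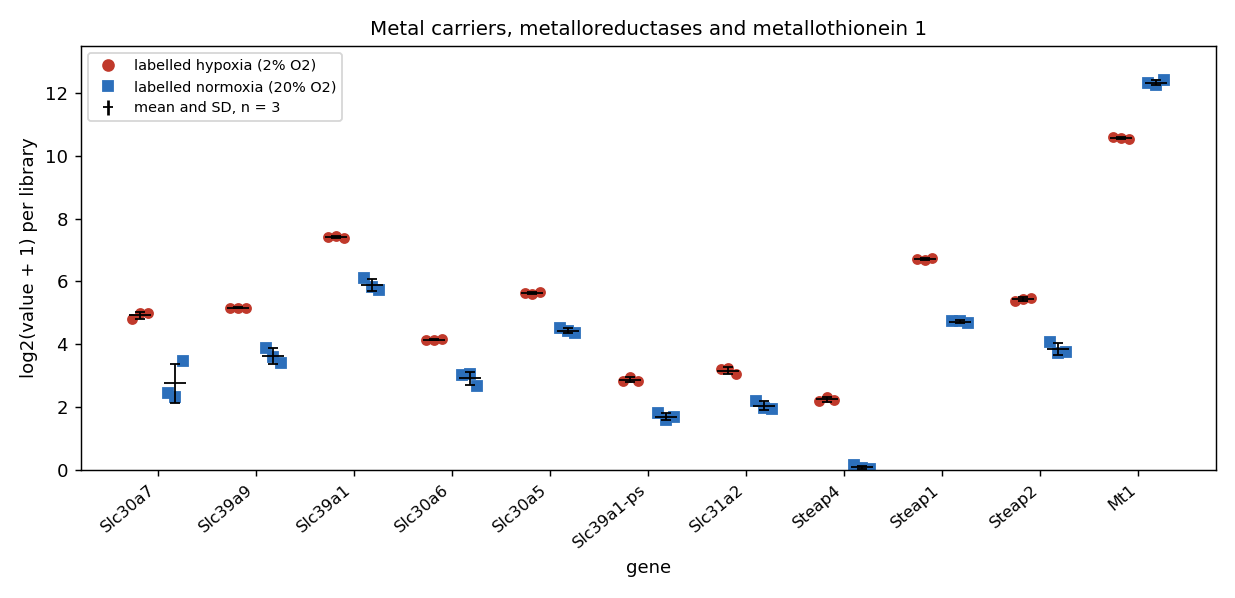
Level on the log2(value + 1) scale in each library, with the mean and SD of each group (n = 3). Shown are the 7 listed genes of the metal class, among them the pseudogene Slc39a1-ps, 3 genes of the Steap family and Mt1. The genes of the metal class and the Steap genes are higher in the libraries labelled hypoxia as deposited. TMM factors, not drawn here, put the difference of Slc30a5 below 0. Mt1 is lower, at 10.52 to 10.59 against 12.25 to 12.42 in the libraries labelled normoxia.

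Carriers of the endoplasmic reticulum and Golgi that feed protein modification included the gene with the second largest difference. Slc33a1 (ENSMUSG00000027822, chromosome 3), which brings acetyl-CoA into the endoplasmic reticulum for protein acetylation, was at 5.48, 5.45 and 5.48 in the libraries labelled hypoxia and at 3.55, 3.33 and 3.36 in those labelled normoxia. Its groups are separated by 1.89, the widest gap of the 49 genes, and the difference of 2.06 ± 0.088 had the smallest adjusted p of the set (limma, Benjamini-Hochberg adjusted p = 5.29e-08). All 6 listed genes of the nucleotide sugar family Slc35 rose as deposited (median 1.28). With quantile normalization 5 of the 6 were still called higher, while with TMM factors 2 were called higher and Slc35b2 was below 0. RefSeq has 27 protein-coding genes of this family.

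Within the Slc35 family, Slc35b4, a carrier of UDP-xylose and UDP-N-acetylglucosamine, was at 5.06, 5.13 and 5.08 under the hypoxia label and 3.34, 3.06 and 2.99 under the normoxia label (1.96 ± 0.11). Slc35c1, which brings GDP-fucose into the Golgi, was at 3.68, 3.70 and 3.60 under the hypoxia label and at 2.47, 2.27 and 2.04 under the normoxia label (1.40 ± 0.12). Slc35a4, a relative of the nucleotide sugar carriers, was at 6.54, 6.54 and 6.52 under the hypoxia label, against 5.37, 5.08 and 5.10 under the normoxia label (1.35 ± 0.089). Normoxia replicate 2 was the highest of its label in these 3 genes. Slc35a5 was set apart more by 1 library: it was at 4.44, 4.47 and 4.29 in the libraries labelled hypoxia, against 3.77, 2.89 and 2.92 in those labelled normoxia. Its difference of 1.21 ± 0.23 had the largest adjusted p of the 49 (limma, Benjamini-Hochberg adjusted p = 0.000816) and was 1.5 without normoxia replicate 2, and quantile normalization ended its call. Slc35d1, which brings UDP-glucuronic acid into the endoplasmic reticulum and is needed for cartilage chondroitin sulfate in mice, had a difference of 1.20 ± 0.12. Slc35b2, which brings the sulfate donor into the Golgi, had 1.10 ± 0.072 as deposited and -0.16 with TMM factors. The sulfate importer Slc26a2, whose loss disturbs cartilage sulfation, differed by 1.15 ± 0.12.

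The Slc10 family is named for bile acid carriers, but neither of its listed genes is known as one. Slc10a3 (ENSMUSG00000032806, chromosome X), with no established substrate, was at 4.62, 4.62 and 4.63 in the libraries labelled hypoxia and at 2.98, 2.48 and 2.33 in those labelled normoxia (2.02 ± 0.15). Slc10a7, whose loss causes a skeletal dysplasia in humans, had a difference of 1.34 ± 0.14. Both stayed above 0 with TMM factors, at 0.87 and 0.29, and Slc10a7 was then no longer called. Exons of Slc10a3 share 258 bases with Ubl4a on the same strand in GENCODE vM21, so that its reads are uncertain.

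All 4 sugar carriers of the set were called higher as deposited (median 1.35), beside 79.4% of all tested genes. The left-out sugar carrier Slc2a1 was lower, so that this count follows from the choice of members. With TMM factors all 4 stayed above 0. Slc2a10 was then still called, but it passed the filter on low values only through the libraries labelled hypoxia, and the other 3 lost the call. Slc45a4, of the proton-coupled sugar carrier family, was at 4.43, 4.43 and 4.14 in the libraries labelled hypoxia, against 2.90, 2.90 and 2.97 in those labelled normoxia. Slc37a3, a lysosomal protein needed in human cells for the release of bisphosphonate drugs into the cytosol, was at 5.19, 5.21 and 5.24 under the hypoxia label and 4.05, 3.71 and 3.74 under the normoxia label. Their differences were 1.41 ± 0.10 and 1.38 ± 0.10. Slc37a2, a sugar phosphate exchanger known from macrophages and osteoclasts, had 1.31 ± 0.11. Slc2a10, which encodes the facilitated carrier GLUT10, had 1.29 ± 0.092, opposite in sign to the left-out Slc2a1 of the same family (-3.13 ± 0.091). Of 12 Slc2 genes in RefSeq these were the 2 listed.

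Nucleoside and vitamin carriers also rose as deposited, and with TMM factors all 3 lost the call. The equilibrative nucleoside carrier Slc29a1, which moves adenosine, was at 8.45, 8.43 and 8.47 in the libraries labelled hypoxia and at 7.01, 6.97 and 7.05 in those labelled normoxia, with libraries of each label within 0.1 of each other. Its difference of 1.44 ± 0.067 was 1.03 with quantile normalization and 0.17, no longer called, with TMM factors. Slc19a1, the reduced folate carrier, was at 5.58, 5.54 and 5.56 under the hypoxia label and 4.24, 4.38 and 4.26 under the normoxia label. The thiamine carrier Slc19a2 was close to it, with differences of 1.27 for Slc19a1 and 1.26 for Slc19a2 as deposited, and 0.037 and 0.083 with TMM factors. Of 3 Slc19 genes in RefSeq these were the 2 listed.

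Of 47 genes of the mitochondrial carrier family in RefSeq 5 were listed. Of the 5 differences, 4 were below the median of all tested genes, 1.15, and below the 1.23 of the tested genes that were higher. Slc25a32, which brings folate or FAD into mitochondria, was at 4.14, 4.27 and 4.26 in the libraries labelled hypoxia, against 2.82, 2.85 and 2.69 in those labelled normoxia (1.44 ± 0.091). Slc25a40, a glutathione carrier of the inner membrane, was at 4.07, 4.03 and 4.03 under the hypoxia label and 3.25, 2.95 and 2.92 under the normoxia label, and its difference of 1.00 ± 0.11 was -0.16 with TMM factors. Slc25a35, with no established substrate, was at 2.36, 2.39 and 2.35 under the hypoxia label and at 1.65, 1.09 and 1.35 under the normoxia label. The basic amino acid carrier Slc25a29 and Slc25a47, best known from liver, had differences of 1.08 and 1.09. All 5 rose as deposited, 3 were called with quantile normalization, and with TMM factors Slc25a40 was below 0 and Slc25a32 and Slc25a47 were called higher. Slc25a47 passed the filter on low values only through the libraries labelled hypoxia.

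Amino acid carriers were the largest class, with 9 listed genes that all rose as deposited, and they stood low among the 49. Their median was 1.13, below the 1.15 of all tested genes, and 2 of 9 lay above that value. It was also below the 1.23 of the tested genes that were higher, the closer comparison for a set without lower genes. With TMM factors 4 of the 9 were below 0 and the other 5 above 0, and all 9 lost the call. The left-out Slc1a5, Slc7a5, Slc7a11 and Slc7a2, which also carry amino acids, had differences of 2.36, 1.82, 1.33 and 1.31, all above each of the 9 except that Slc7a2 was below Slc66a2, so that the class as listed here lacks its upper end.

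The largest difference among the 9 was that of Slc66a2, a relative of lysosomal amino acid exporters. It was at 3.77, 3.77 and 3.77 in the libraries labelled hypoxia and at 2.40, 2.49 and 2.45 in those labelled normoxia (1.32 ± 0.085). Its relative Slc66a1, the lysosomal exporter of cationic amino acids, differed by 1.13 ± 0.096. The cationic amino acid importers of the plasma membrane Slc7a1 and Slc7a3 differed by 1.06 ± 0.085 and 1.12 ± 0.13, and with TMM factors Slc7a1 was at -0.18 and Slc7a3 at 0.02. Slc7a6, a light subunit that exchanges cationic for neutral amino acids, varied more than the others. It was at 4.61, 5.10 and 4.87 under the hypoxia label and 3.77, 3.98 and 3.44 under the normoxia label (1.13 ± 0.16), and quantile normalization and TMM factors each ended its call. Slc38a6 and Slc38a10, of a family of mostly sodium-coupled carriers, differed by 1.26 and 1.13, and Slc36a4, of the family of proton-assisted carriers, by 1.15. Slc38a10 was below 0 with TMM factors, at -0.12. Slc43a3 (1.09 as deposited, -0.16 with TMM factors) is placed here by its family number, although it is known to carry purine nucleobases.

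Carriers of neurotransmitters and vesicular solutes were listed in 4 genes, which rose as deposited, Slc6a9 falling below 0 with TMM factors. Slc6a2, the noradrenaline carrier, was at 2.09, 2.15 and 2.00 in the libraries labelled hypoxia, against 0.98, 0.62 and 0.78 in those labelled normoxia (1.29 ± 0.11). The glycine carrier Slc6a9 differed by 1.08 ± 0.11 as deposited and by -0.18 with TMM factors. Slc17a9, which loads ATP into vesicles, was at 2.51, 2.23 and 2.30 under the hypoxia label and 1.33, 0.99 and 0.93 under the normoxia label (1.26 ± 0.13). The lysosomal sialic acid exporter Slc17a5 differed by 1.12 ± 0.12. The lysosomal peptide and histidine carrier Slc15a3 was at 1.44, 1.86 and 1.48 under the hypoxia label and at 0.62, 0.21 and 0.46 under the normoxia label (1.16 ± 0.14), with hypoxia replicate 2 above the other two of its label.

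The class of inorganic ions and protons holds the scaffold gene Slc9a3r1 and leaves the phosphate importer Slc20a2 to a class of its own. The 6 genes of the class rose as deposited and stayed above 0 with TMM factors, where Slc4a11 and Slc24a3 were still called. Both passed the filter on low values only through the libraries labelled hypoxia, and the other 4 lost the call. The scaffold gene Slc9a3r1 was at 5.62, 5.70 and 5.64 in the libraries labelled hypoxia and at 4.51, 4.32 and 4.23 in those labelled normoxia (1.30 ± 0.088). The sodium/proton exchanger Slc9a8 differed by 1.29 ± 0.12, the proton and base carrier Slc4a11 by 1.21 ± 0.09 and the sodium-potassium-chloride cotransporter Slc12a2 by 1.10 ± 0.12. Slc24a3, a potassium-dependent sodium/calcium exchanger, was at 1.71, 1.55 and 1.51 under the hypoxia label, against 0.57, 0.68 and 0.51 under the normoxia label. The phosphate importer Slc20a2, of the pair of plasma membrane carriers Slc20a1 and Slc20a2, was at 4.93, 5.01 and 4.95 under the hypoxia label and at 3.92, 4.10 and 3.81 under the normoxia label (1.02 ± 0.095, and -0.19 with TMM factors). Slc24a3, Slc25a40 and Slc25a35, at 1.00, 1.00 and 1.01, were the members closest to the table's lower limit of 1.00, and genes beyond it were not analysed here.

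The log2(value + 1) scale understates the change of low genes. In 6 members (Slc2a10, Slc6a2, Slc4a11, Slc15a3, Slc25a47 and Slc24a3) the linear value was under 1 in all 3 libraries labelled normoxia. All 6 therefore owe their place in the test to the libraries labelled hypoxia. Slc17a9, under 1 in normoxia replicates 3 and 4, also needed the libraries labelled hypoxia to pass the filter on low values. The ratio of mean linear values was 5.72 for Slc15a3 and 5.21 for Slc2a10, against 4.75 for Slc30a7, the gene with the largest log2 difference. Slc24a3, with the smallest log2 difference, had a ratio of 3.98. Across the 49 genes the ratio ran from 2.10 to 5.72, and the ratios of the 6 low genes rest on small values in libraries whose depth is unknown.

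**Figure D4:**
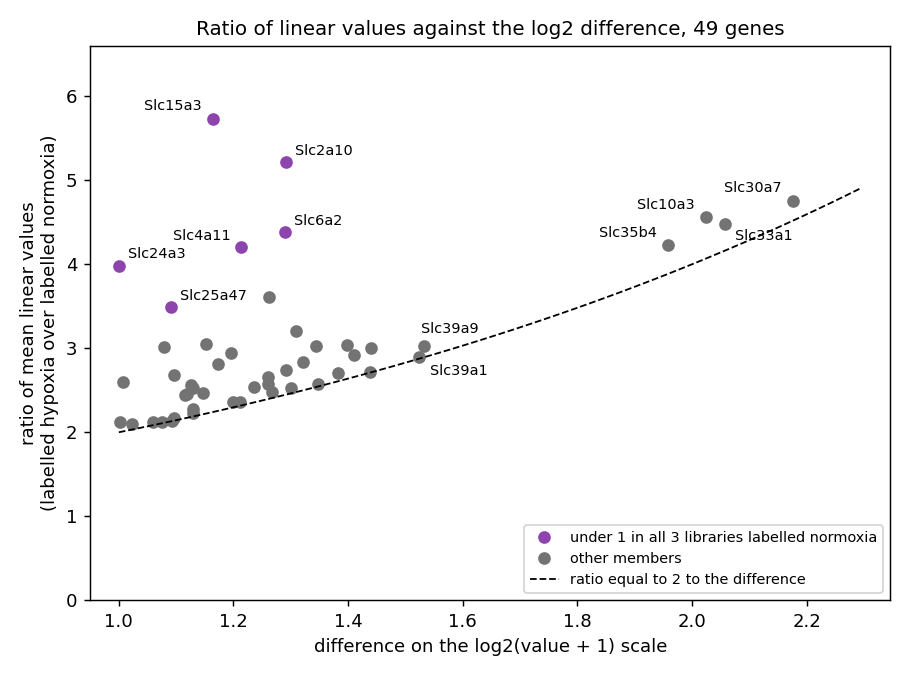
Ratio of mean linear values, libraries labelled hypoxia over libraries labelled normoxia (vertical), against the difference on the log2(value + 1) scale (horizontal), for the 49 genes. The dashed line is the ratio that a difference would give without the added 1; the 6 genes under 1 in every library labelled normoxia lie farther above it than the other members, with ratios from 3.49 to 5.72.

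Libraries labelled hypoxia were closer to each other than those labelled normoxia. The median SD over the 49 genes was 0.0455 under the hypoxia label and 0.154 under the normoxia label (n = 3 each), and the SD under the normoxia label was larger in 41 genes (83.7%), beside 73.9% of all tested genes. Normoxia replicate 2 was the highest of its label in 31 of the 49 genes (63.3%), beside 62.8% of all tested genes, and so stood nearest to the libraries labelled hypoxia in them. In 12 of the 49 genes at least 100 exonic bases overlap another gene in GENCODE vM21, 11 of them on the opposite strand, among them Slc15a3, Slc6a9 and 4 of the 5 members with the largest differences: Slc30a7, Slc33a1, Slc35b4 and Slc39a9. The kit was stranded, but the sources used here do not say whether counting used the strand, so these values are uncertain.

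Carriers whose symbols do not start with Slc were matched by symbol in 5 of 46 cases. Of these, 4 were called higher and 1 lower under the hypoxia label, close to the 79.4% and 20.6% of all tested genes. Ankh is among the 46 but stands in the table under its other symbol, Ank, so that this count misses it. Ank, given above with the osteocyte markers, was also called higher as deposited (1.07 ± 0.076) and was at -0.16 with TMM factors. The lower gene was Flvcr1, which exports heme and imports choline, at 3.53, 3.56 and 3.44 under the hypoxia label and 4.40, 4.51 and 4.89 under the normoxia label (-1.09 ± 0.13). The higher genes were Mfsd7a (1.90 ± 0.11), Tmem165 (1.70 ± 0.13), a Golgi protein that acts on calcium, manganese and protons, the lysosomal cysteine importer Mfsd12 (1.35 ± 0.12) and the mitochondrial sideroflexin Sfxn2 (1.14 ± 0.10). With TMM factors they stayed above 0, at 1.03, 0.46, 0.23 and 0.15, and Mfsd12 and Sfxn2 lost the call. Mfsd7a, at 1.07, 0.89 and 0.95 under the normoxia label, passed the filter on low values only with the libraries labelled hypoxia. The pump subunits Atp6v0a2 (1.20) and Atp1b3 (1.04) were the 2 of 29 listed among pumps that drive carriers, higher as deposited and below 0 with TMM factors, where Atp1b3 was called lower (-0.22).

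Of 31 genes listed as accessory subunits and regulators of carriers, 6 were in the table, 2 called higher and 4 called lower, beside 79.4% and 20.6% of all tested genes. Basigin, Bsg, and embigin, Emb, which bring monocarboxylate carriers to the plasma membrane, moved in opposite directions as deposited. Bsg was at 10.29, 10.19 and 10.15 in the libraries labelled hypoxia, against 11.61, 11.64 and 11.66 in those labelled normoxia (-1.43 ± 0.073), a call that quantile normalization ended. Emb was at 7.61, 7.60 and 7.63 under the hypoxia label and 6.49, 6.38 and 6.49 under the normoxia label (1.16 ± 0.067), and with TMM factors it was at -0.11. The 3 alpha-arrestins were lower under every scaling tried, with differences as deposited of -1.77 ± 0.17 for Txnip, which takes GLUT1 off the plasma membrane, -1.06 ± 0.091 for Arrdc4 and -1.06 ± 0.12 for Arrdc3. Ostc (2.06 ± 0.098), also on that list, is a subunit of the oligosaccharyltransferase and not a regulator of carriers.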

How the data were processed

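Messenger RNA of MLO-Y4 cells was sequenced in 6 libraries. Libraries were made with a stranded kit, per the labels' protocols. Per the submitters' processing notes, FastQC 0.12.0, DRAGEN and the build GRCm39 (mm39) were used; those notes give no version of DRAGEN. The authors deposited a log2 entry per library, whose antilog minus 1 had 3 decimals in 100% of entries (tolerance 1e-07), and an adjusted p-value per gene, of at most 0.0926, whose test no source used here names. Their deposited log2 fold change equals the difference of group means. Another 21 columns were not used.

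The whole table was tested with limma 3.58.1 in R 4.3.3 (variance trend, robust, two-sided, Benjamini-Hochberg, threshold 0.05, pseudocount 1) on genes that reached a linear value of 1 in 3 or more libraries (2056 tested, 9 not). The procedure was tested on simulated data. Members were found by symbol, and 33 of 49 matched a RefSeq promoter. Values per library are given for the 12 largest differences, the largest of each class and the 3 nearest the lower limit; the promoters shown and the values of Slc30a5, Slc30a6, Slc35a5, Slc7a6 and the genes that are not members were chosen after their values were seen. The members, classes and lists were chosen with earlier results of these data known. Alternatives were other pseudocounts, filters and scalings, no trend, a replicate block, a threshold of 0.01 and leaving out each library.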

Additional observations from a re-analysis of the deposited data

How the results depend on the processing

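All 49 members stayed called higher with pseudocounts of 0.1 and 5, with no filter, without the variance trend, at a threshold of 0.01 and without each library in turn, and under a filter of 5 the 39 that were tested did too. Among all 2056 tested genes the number called higher stayed at 1633 with both pseudocounts, without the trend and at a threshold of 0.01. It was also 1633 without any 1 library other than hypoxia replicate 1, and nearly the same without that replicate. Under the filter of 5, 1766 genes were tested, and the share called higher was close to the 79.4% of the main test. The stability of these calls is therefore shared by the table and does not set the members apart. The median difference of the 49 members was 1.21 as deposited, and 1.44 and 0.91 with pseudocounts of 0.1 and 5. It was 0.41 with quantile normalization and 0.17 with TMM factors. Leaving out each library gave 1.18 to 1.26. Quantile normalization ended 6 of the 49 calls. TMM factors left 15 of the 49 members and 571 of 1633 genes called higher. With TMM factors the difference was below 0 for Slc30a5 (-0.033), Slc38a10 (-0.12), Slc7a6 (-0.076), Slc35b2 (-0.16), Slc43a3 (-0.16), Slc6a9 (-0.18), Slc7a1 (-0.18), Slc20a2 (-0.19), Slc25a40 (-0.16), Atp6v0a2 (-0.0084), Emb (-0.11), Ank (-0.16) and Atp1b3 (-0.22). The cause was not tested; by construction TMM centres the listed genes, of which 79.4% were higher. With the replicate number as a block 49 members were called higher, and of all tested genes nearly as many as the 1633 without it. The median difference was then 1.2 for the members and 1.15 for all tested genes. Libraries of the groups share the numbers 2 and 4 only, so this fit has little left to estimate the spread from. Its calls therefore add no support. The deviations of the libraries with these numbers correlated with r = 0.082 and -0.073 across genes, and the labels do not pair them. The depth is unknown, which limits the members near or under a value of 1.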
